A study of Homo sapiens with 6 samples.

Results

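The centromere and kinetochore genes described here are 40 genes of the human genome, out of 60656 rows in the count table. They were chosen by symbol, as the CENP proteins, the NDC80, MIS12, SKA and MIS18 complexes, the shugoshins, MAD2 and their partners, and each of the 40 symbols matched 1 row by its Ensembl identifier. RNA was measured in parental ZR-75-1 cells, an oestrogen receptor-positive human breast cancer line that keeps its RB1 gene, grown in RPMI medium with fetal bovine serum. In 3 libraries the cells had received DMSO, the solvent, and in 3 they had received 500 nM abemaciclib, an inhibitor of the cell cycle kinases CDK4 and CDK6, each for 4 days. The comparison asks what happens to these genes when CDK4/6 inhibition leaves Rb active, and RB1 knockout libraries were not analysed here.

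The kinetochore is the protein machine that ties a chromosome to the mitotic spindle. It is built on the centromere, where nucleosomes hold the histone variant CENP-A and where the constitutive centromere-associated network (CCAN) sits through the cell cycle. The KNL1, MIS12 and NDC80 complexes are added on the outside and grip microtubules, with the SKA complex as a helper, and the spindle checkpoint proteins wait there until every chromosome is attached. Many of the genes are transcribed in waves, held down in G1 by Rb with E2F and by the DREAM complex and switched on towards mitosis. DREAM and its activating counterparts are known to bind a short element in promoters, the cell cycle genes homology region (CHR), often next to CCAAT boxes bound by NF-Y.

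Each library held between 3317860 and 4013156 counts on genes. The kit reads the 3′ end of transcripts, so counts are not expected to grow with gene length. Levels are given in CPM, which here are TMM-scaled counts divided by library size. How evenly the 3′ ends of different genes were counted was not tested. A gene called most abundant here is the one with the most CPM. A count of 0 in a library allowed a level of up to 0.740 to 0.909 CPM, from counting error alone. The luminal markers KRT8, KRT18, KRT19, EPCAM, CDH1, ESR1, GATA3 and FOXA1 were present in every library, with a summed level of 7478 to 7935 CPM with DMSO and 8520.2 to 9512 CPM with abemaciclib. The leukocyte markers summed to at most 1.19 CPM and the endothelial markers to at most 1.51 CPM. The fibroblast markers summed to 10.4 to 15.8 CPM. Nearly all of this was COL1A1, with 35 to 57 counts per library, while COL1A2 and COL3A1 were at 0 in all 6 libraries.

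Most of the centromere and kinetochore genes had lower RNA with abemaciclib, and the size of the fall differed widely between them. Of the 39 members with enough counts to be tested, 27 were lower at an adjusted p under 0.05 (edgeR's quasi-likelihood test, adjusted over 10863 genes), against 13.3% of all genes tested. No member was called higher: the count was 0 at an unadjusted p under 0.05 and 0 by DESeq2. Of all genes tested, edgeR called 12.5% higher. The 13.3% is also the share to set beside the counts of lower genes in each role group below. In 31 of the 39, every abemaciclib library lay below every DMSO library, which was so for 20.1% of all genes tested, and in 1, MIS18A, the order was the opposite, as in 19.1% of all genes tested. The median log2 fold change of the 39 was −1.08, against −0.00 over all genes tested, and 20 of the 27 fell by at least 1 on the log2 scale. In a bulk library, fewer cells in the phases that use these genes and less RNA in each cell cannot be told apart.

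The summed level of the 40 genes was 2928, 2960.1 and 2944 CPM in the DMSO libraries and 896, 978 and 936 CPM in the abemaciclib libraries. The DMSO libraries stayed within a narrow band, and each abemaciclib library was far below it. CENPF alone made up 42.9% to 44.5% of the members' counts with DMSO and 13.1% to 14.2% with abemaciclib. Without CENPF the sum was 1635 to 1690 CPM with DMSO and 778 to 839 CPM with abemaciclib, so the fall was smaller but again without overlap. Across the 39 genes tested, the level with DMSO and the log2 fold change had a Spearman rho of −0.12, a description over genes that share the same libraries.

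**Figure D1:**
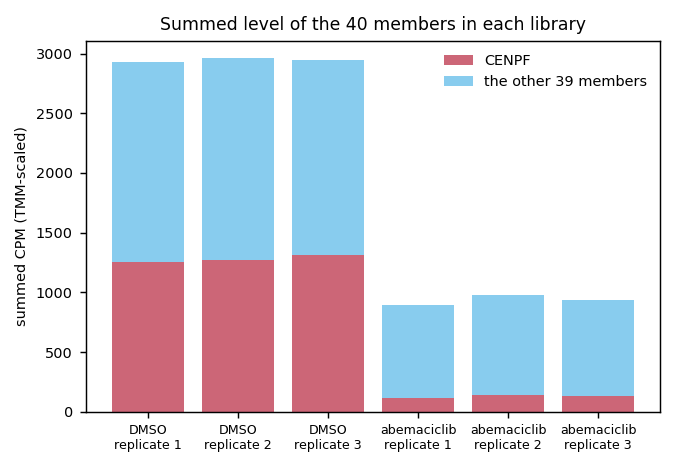
Stacked bars of the summed level of the 40 centromere and kinetochore genes in each library (vertical axis, TMM-scaled CPM), split into CENPF and the other 39 genes. The 3 DMSO libraries reach 2928 to 2960.1 CPM and the 3 abemaciclib libraries 896 to 978 CPM, and the CENPF part shrinks more than the rest.

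**Figure D2:**
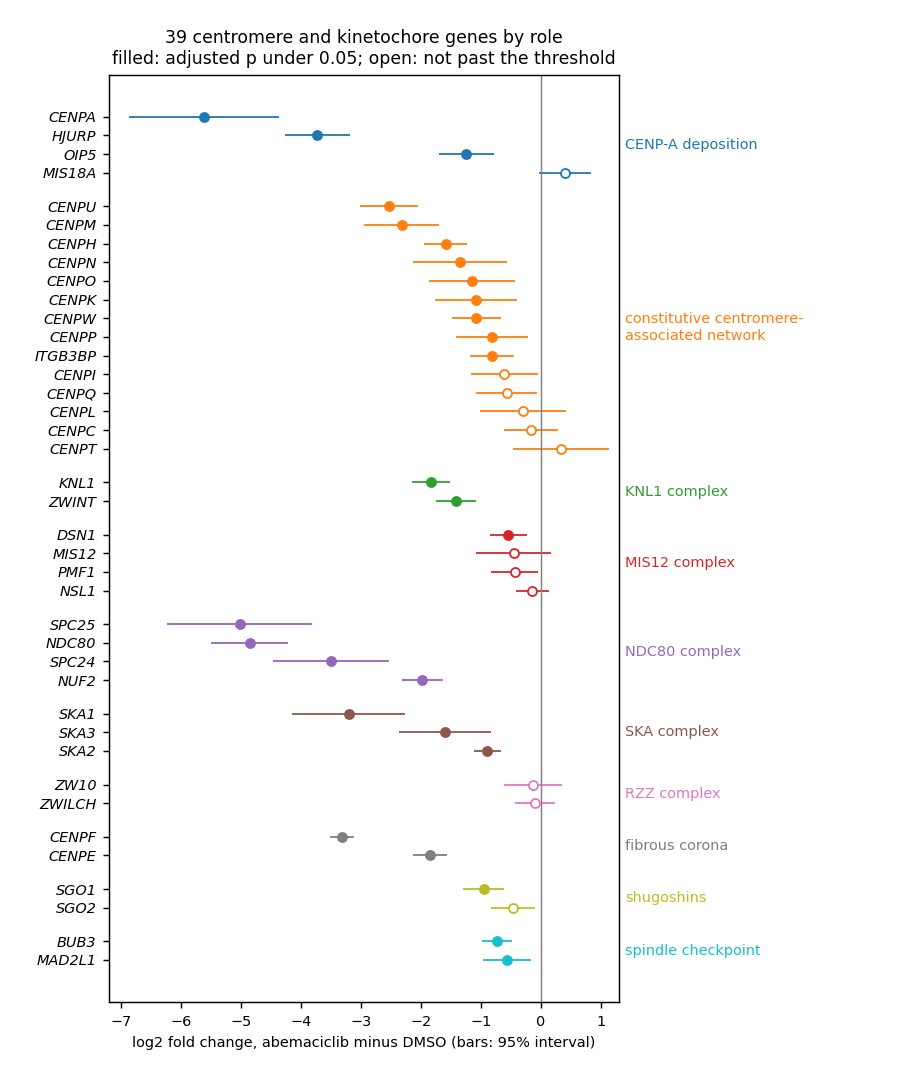
Log2 fold change (abemaciclib minus DMSO, horizontal axis) of the 39 genes tested, grouped and coloured by role, with bars for the 95% interval and filled points for an adjusted p under 0.05. CENPA, SPC25, NDC80, HJURP and SPC24 lie farthest to the left, at −5.62 to −3.50, and the intervals of ZWILCH, ZW10, NSL1 and CENPC cross 0.

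The genes that load CENP-A onto centromeres did not move alike. CENPA, the centromeric histone itself (chromosome 2 of GRCh38, 26764289 to 26801067), had 16.0, 13.4 and 15.4 CPM with DMSO and 0, 0.740 and 0 CPM with abemaciclib. All that was left were 3 counts in abemaciclib replicate 2, against 151 counts over the DMSO libraries, a 55.0-fold ratio of pooled CPM with a 95% counting interval of 18.5 to 270. Its fitted log2 fold change was −5.62 (SE, the standard error, 0.61, adjusted p = 3.49e-08), and −8.68 without abemaciclib replicate 2. Without that replicate the treated libraries held 0 counts of CENPA, so the −8.68 gives a direction and not a size. HJURP, the chaperone that delivers CENP-A (chromosome 2, 233833416 to 233854566), had 40.6, 38.9 and 37.0 CPM with DMSO and 3.33, 2.47 and 2.97 CPM with abemaciclib, a log2 fold change of −3.73 (SE 0.27, adjusted p = 7.06e-12). Here the 3 abemaciclib libraries were alike, at 7.53% of the DMSO mean together.

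The MIS18 complex, which primes the centromere for HJURP, did not move as one. OIP5, the MIS18-beta subunit, fell from 28.1 ± 2.06 to 11.8 ± 1.34 CPM (SD, n = 3 each), or −1.24 on the log2 scale (SE 0.22, adjusted p = 0.000106). Its 3′ end overlaps OIP5-AS1 on the opposite strand, a gene with 325 to 482 counts per library against 35 to 100 for OIP5, so its counts are uncertain. MIS18A, the MIS18-alpha subunit (chromosome 21, 32268228 to 32279049), had 17.4, 20.8 and 20.6 CPM with DMSO and 26.0, 29.4 and 22.2 CPM with abemaciclib. The groups did not overlap, with abemaciclib on the upper side, but the log2 fold change of 0.40 (95% interval −0.03 to 0.83) did not pass the threshold (adjusted p = 0.173, edgeR). In counts, MIS18A stood at 0.429 to 0.557 per HJURP count with DMSO and at 7.45 to 11.9 with abemaciclib.

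The CCAN, the scaffold between CENP-A and the outer kinetochore, had 9 of 14 genes lower, and the median of the 14 log2 fold changes was −0.95. CENPU, of the CENP-O/P/Q/R/U module, fell most: it had 43.8, 36.5 and 55.4 CPM with DMSO and 9.08, 5.67 and 8.92 CPM with abemaciclib, a log2 fold change of −2.53 (SE 0.24, adjusted p = 1.87e-09). Its 3′ end overlaps PRIMPOL on the opposite strand, which had 17 to 47 counts per library against 23 to 183 for CENPU. CENPM, of the CENP-H/I/K/M module, had 20.0, 25.2 and 18.8 CPM with DMSO and 4.24, 4.93 and 3.51 CPM with abemaciclib, with a log2 fold change of −2.32. These were the CCAN genes with under 20% of the DMSO mean left.

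The other CCAN genes past the threshold lost less. The log2 fold changes were −1.59 for CENPH and −1.34 for CENPN, −1.15 for CENPO, and −1.08 for both CENPK and CENPW. The 3′ end of CENPN overlaps an unnamed long non-coding RNA on the same strand, so its counts are uncertain. Changes were −0.82 for CENPP and −0.81 for ITGB3BP, the CENP-R subunit. With 1 library left out, some of these genes no longer passed the threshold. CENPN was at −0.97 without DMSO replicate 1 (adjusted p = 0.135, edgeR). CENPK was at −1.02, −0.99 and −0.91 without DMSO replicate 1, DMSO replicate 2 and abemaciclib replicate 1 (adjusted p of 0.0603 to 0.0789, edgeR). CENPO was at −1.01, −1.05 and −0.95 without DMSO replicate 2, DMSO replicate 3 and abemaciclib replicate 1 (0.0654 to 0.0922, edgeR). Over all alternatives CENPK ran from −1.27 to −0.91 and CENPO from −1.37 to −0.95. CENPP, whose 3′ end overlaps IPPK on the opposite strand, lost its call when replicate 1 or 3 of either group was left out (log2 fold changes of −0.84 to −0.65, adjusted p of 0.0694 to 0.191), with DESeq2 (0.104) and with no filter on low counts (0.0525).

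The remaining CCAN genes did not pass the threshold. CENPC, which binds the CENP-A nucleosome, had 20.3, 29.4 and 29.7 CPM with DMSO and 17.2, 27.4 and 25.7 CPM with abemaciclib. The groups overlapped, and the log2 fold change of −0.17 had a 95% interval of −0.62 to 0.28. CENPT, which forms a histone-like complex with CENPW and recruits NDC80, was low throughout, with 5.51, 4.75 and 7.27 CPM with DMSO and 9.08, 6.17 and 7.03 CPM with abemaciclib (log2 fold change 0.34, 95% interval −0.46 to 1.14). Its partner CENPW had 42.1, 36.5 and 31.8 CPM with DMSO and 15.7, 18.5 and 17.8 CPM with abemaciclib, without overlap.

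For CENPL, the partner of CENPN, the libraries scattered more than the groups differed, with 5.51, 14.9 and 16.1 CPM with DMSO and 9.98, 6.66 and 13.0 CPM with abemaciclib (log2 fold change −0.30, 95% interval −1.02 to 0.42). CENPI had 14.8, 13.4 and 18.8 CPM with DMSO and 8.77, 11.3 and 10.5 CPM with abemaciclib. CENPI did not overlap between the groups, but its log2 fold change of −0.61 did not pass (95% interval −1.17 to −0.04, adjusted p = 0.109, edgeR). CENPQ had 19.1, 28.5 and 22.4 CPM with DMSO and 11.2, 21.5 and 14.1 CPM with abemaciclib. Its log2 fold change was −0.57 (adjusted p = 0.0938, edgeR) and became −0.88 and passed without abemaciclib replicate 2 (adjusted p = 0.0232, edgeR), its highest abemaciclib library.

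The NDC80 complex, the 4-subunit rod that binds microtubules, had the lowest median of the 10 role groups, a log2 fold change of −4.18, and all 4 genes were lower. NDC80 (chromosome 18, 2571557 to 2616635) had 42.1, 36.5 and 34.2 CPM with DMSO and 1.21, 1.48 and 1.08 CPM with abemaciclib. That left 14 counts over the abemaciclib libraries against 381 with DMSO, and a log2 fold change of −4.86 (SE 0.31, adjusted p = 8.06e-13). SPC25 (chromosome 2, 168834132 to 168913371) had 14.5, 17.5 and 15.4 CPM with DMSO, was at 0 in abemaciclib replicates 1 and 2 and had 1.35 CPM in replicate 3. Its 5 remaining counts lay in 1 library, and its log2 fold change of −5.02 (SE 0.59, adjusted p = 1.32e-07) was −8.79 without that library. With it left out, the treated libraries held 0 counts of SPC25, so the −8.79 likewise gives a direction and not a size.

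SPC24, which pairs with SPC25 at the inner end of the rod, had 17.7, 9.51 and 17.3 CPM with DMSO and 2.12, 0.493 and 1.35 CPM with abemaciclib, a log2 fold change of −3.50 (SE 0.47). NUF2, which pairs with NDC80 at the microtubule end, had 100.4, 125 and 97.2 CPM with DMSO and 34.8, 27.4 and 20.0 CPM with abemaciclib, a log2 fold change of −1.98 (SE 0.17, adjusted p = 2.06e-10). NUF2 was therefore the most abundant of the 4 in both groups and kept the largest share, 25.4% of its DMSO mean against 3.34% for NDC80. There were 2.39, 3.43 and 2.84 NUF2 counts per NDC80 count in the DMSO libraries and 28.8, 18.5 and 18.5 in the abemaciclib libraries, which did not overlap.

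The SKA complex, which follows shortening microtubules together with NDC80, had all 3 genes lower. SKA1 had 18.9, 16.9 and 24.2 CPM with DMSO and 0.908, 4.93 and 0.270 CPM with abemaciclib. Abemaciclib replicate 2 stood above the other treated libraries, and the log2 fold change of −3.21 (SE 0.46, adjusted p = 3.58e-06) was −5.04 without it. SKA3 had 16.0, 12.2 and 9.99 CPM with DMSO and 3.63, 2.96 and 5.94 CPM with abemaciclib, a log2 fold change of −1.60. SKA2, the most abundant of the 3, fell least, from 204, 179 and 196 CPM to 97.4, 105 and 109 CPM (log2 fold change −0.89, SE 0.11, adjusted p = 2.69e-07).

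The KNL1 complex, the docking platform of the checkpoint, had both genes lower. KNL1 had 116, 127 and 111 CPM with DMSO and 24.5, 41.0 and 33.5 CPM with abemaciclib (log2 fold change −1.83, SE 0.15, adjusted p = 1.8e-10). ZWINT, its partner, which holds the RZZ complex, had 67.9, 71.6 and 60.0 CPM with DMSO and 22.7, 28.4 and 23.8 CPM with abemaciclib (log2 fold change −1.41). For both genes every abemaciclib library was far below the lowest DMSO library.

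In the MIS12 complex, the link between the CCAN and the other outer complexes, falls were smaller than in the NDC80 complex. Of its 4 genes 1 was lower, against 13.3% of all genes tested. In 3 of the 4 every abemaciclib library lay below every DMSO library, against 20.1% of all genes tested. The median log2 fold change was −0.44, against −0.00 over all genes tested. DSN1 fell from 65.5, 52.9 and 56.3 CPM with DMSO to 37.8, 41.7 and 40.5 CPM with abemaciclib, a log2 fold change of −0.54 (SE 0.15, adjusted p = 0.00902), and missed the threshold without DMSO replicate 1 (adjusted p = 0.0706). NSL1 had 69.0, 86.4 and 82.7 CPM with DMSO and 73.5, 77.7 and 64.6 CPM with abemaciclib. The NSL1 groups overlapped, and its log2 fold change of −0.14 had a 95% interval of −0.42 to 0.13, which leaves a fall like that of the NDC80 complex genes outside it.

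MIS12 had 10.4, 11.3 and 15.4 CPM with DMSO and 9.68, 9.62 and 7.84 CPM with abemaciclib. PMF1 had 27.6, 37.1 and 38.2 CPM with DMSO and 27.5, 24.4 and 24.3 CPM with abemaciclib. Neither passed the threshold, at log2 fold changes of −0.45 and −0.43, although their groups did not overlap, and PMF1 passed without DMSO replicate 1 (log2 fold change −0.57, adjusted p = 0.0487, edgeR).

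The RZZ complex, which brings dynein and the checkpoint protein MAD1 to unattached kinetochores, was represented by 2 genes, neither past the threshold. ZWILCH had 47.6, 42.8 and 45.4 CPM with DMSO and 34.5, 41.9 and 50.3 CPM with abemaciclib, and ZW10 had 16.2, 22.9 and 18.2 CPM with DMSO and 18.8, 19.0 and 14.6 CPM with abemaciclib. Both overlapped between the groups. Their log2 fold changes were −0.10 (95% interval −0.44 to 0.24) and −0.13 (−0.61 to 0.35). The 3′ end of ZWILCH overlaps LCTL on the opposite strand, which had at most 1 count in a library. KNTC1, the large subunit of the same complex and not among the members, was lower, at −1.65 in log2 units (edgeR, adjusted p = 0.00527).

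The fibrous corona proteins, the outermost layer that catches microtubules from the side, were both lower. CENPF (chromosome 1, 214603185 to 214664574) was the most abundant member, with 1255, 1270.2 and 1309 CPM with DMSO and 117, 139 and 128 CPM with abemaciclib, a log2 fold change of −3.32 (SE 0.10, adjusted p = 3.32e-20). CENPE, a kinesin motor that carries chromosomes to the spindle equator, had 112, 124 and 122 CPM with DMSO and 27.2, 37.5 and 34.3 CPM with abemaciclib, a log2 fold change of −1.85 (SE 0.14, adjusted p = 2.6e-11). CENPE therefore kept 27.7% of its DMSO mean and CENPF 10.0%.

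The shugoshins guard the cohesin at centromeres until the chromatids part. SGO1, the mitotic one, fell from 66.4, 58.5 and 59.7 CPM with DMSO to 27.5, 27.9 and 39.7 CPM with abemaciclib (log2 fold change −0.96, SE 0.17, adjusted p = 7.14e-05). SGO2 had 35.4, 36.8 and 41.5 CPM with DMSO and 29.3, 29.6 and 23.5 CPM with abemaciclib. The SGO2 groups did not overlap either, but its log2 fold change of −0.46 did not pass (95% interval −0.83 to −0.09, adjusted p = 0.06, edgeR).

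Of the checkpoint genes among the members, BUB3, a scaffold that binds phosphorylated KNL1, had 134, 136 and 104 CPM with DMSO and 75.3, 77.0 and 72.7 CPM with abemaciclib (log2 fold change −0.73, SE 0.13, adjusted p = 5.1e-05). MAD2L1, the MAD2 protein that blocks the anaphase trigger, had 45.0, 32.1 and 32.4 CPM with DMSO and 24.5, 20.5 and 29.2 CPM with abemaciclib. Its log2 fold change of −0.56 (adjusted p = 0.0358, edgeR) passed narrowly, and was lost with DESeq2 (adjusted p = 0.0991) and without DMSO replicate 1, abemaciclib replicate 1 or abemaciclib replicate 2 (0.0712 to 0.236). MAD1L1, its binding partner, was the member not tested, with 1 count over all 6 libraries. An annotated protein-coding gene without a name covers the 3′ end of MAD1L1 on the same strand and had 0 counts in every library, and the part of this overlap in the count of MAD1L1 was not tested.

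**Figure D3:**
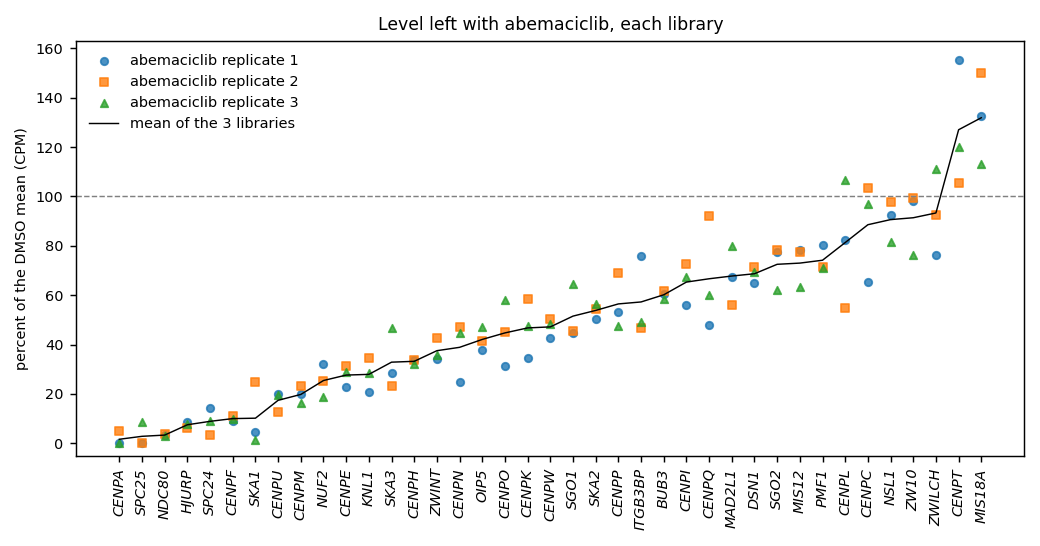
Level left in each abemaciclib library as a percent of the DMSO mean (vertical axis) for the 39 genes tested, ordered by the mean of the 3 libraries (line), with a symbol for each library and a dashed line at the DMSO mean. The order runs from CENPA at 1.65% to MIS18A at 132%, and the libraries lie close together for CENPF and HJURP and apart for SKA1, CENPQ and CENPL.

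The median over the members was lower in each treated library. Taken over the 39 genes tested, the median change from the DMSO mean on the log2(CPM + 1) scale was −1.17, −0.95 and −0.96 in abemaciclib replicates 1, 2 and 3. The DMSO libraries lay between −0.03 and −0.00, where they lie by construction, because the DMSO mean is made from them. A median does not show that every member fell in each library. Of the 40 members, 39 had at least 1 count in each DMSO library and 38 in each abemaciclib library, and the genes without a count in 1 or more of the latter were MAD1L1, CENPA and SPC25.

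Promoter sequences, which had no part in the choice of the genes, were set beside these changes, since the letters of the motifs named above can be searched directly. RefSeq promoters of GRCh38.p14, from 250 bases before to 50 after a RefSeq transcript start, were at hand for 34 of the 40 members. For MIS18A, CENPH, CENPL, CENPM, KNL1 and BUB3 there was none. In CENPA and SPC25, among others, that start lies inside the gene span given above. Which start these cells use was not tested. The CHR was searched as TTTGAA or TTCGAA, the CCAAT box as CCAAT and the E2F motif as TTTCCCGC, TTTGGCGC, TTTCGCGC or TTTGCCGC, each on both strands, where a gene with several windows counted once. None of these strings of letters lies inside another.

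A CHR was found in 17 of the 34 members, against 19.5% of the 27305 genes with a promoter and 14.9% of those tested here. CCAAT was found in 22 (64.7%), against 39.7% of all genes and 44.0% of those tested. An E2F motif was found in 4, CENPA, CENPU, OIP5 and MIS12 (11.8%), against 3.99% of all genes and 7.04% of those tested. Of the 17 members with a CHR, 15 were lower with abemaciclib, with a median log2 fold change of −1.41, and of the 16 tested without one, 8 were lower, with a median of −0.59. With CCAAT 15 of 22 were lower and without it 8 of 11, at medians of −1.02 and −1.15. With an E2F motif 3 of 4 were lower and without it 20 of 29, at medians of −1.89 and −0.96. Over all genes tested, 19.4% of those with a CHR were lower, at a median of −0.07, as were 14.8% of those with CCAAT and 23.0% of those with an E2F motif. These shares and medians are descriptions, and a match is not evidence that a factor binds.

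The position of the CHR was looked at after its matches and the fold changes were known. The counts by position are therefore a description, and the limit of 50 bases leaves out HJURP, CENPC and ZW10. Within 50 bases of the start on either side, 14 of the 34 members (41.2%) had a CHR, against 6.24% of all genes with a promoter and 4.76% of those tested. All 14 were lower with abemaciclib: CENPA, SPC25, NDC80, CENPF, SKA1, NUF2, SKA3, ZWINT, CENPN, OIP5, CENPO, CENPW, SGO1 and MAD2L1. Among them, CENPN, CENPO and MAD2L1 lost their call under some of the alternative settings. Of the 19 tested without a CHR there, 9 were lower. Over all genes tested with a CHR in that stretch, 28.6% were lower, with a median log2 fold change of −0.14. In HJURP the CHR began 111 bases before the start, and the CHR matches of CENPC and ZW10, which did not pass the threshold, began 90 and 224 bases before it. SPC24 and CENPU, with log2 fold changes of −3.50 and −2.53, had CCAAT but no CHR, and CENPE, at −1.85, had none of the 3 motifs.

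The stretches from 150 bases before to 50 after the start are given for the 6 members with the largest falls among those with a CHR in the window, and for the 4 tested members with a promoter whose change was smallest. Capitals mark the CHR, CCAAT and E2F letters on either strand, and all stretches read in the direction of the gene. Those with the largest falls were the following.
CENPA (chr2:26785906-26786105, plus strand): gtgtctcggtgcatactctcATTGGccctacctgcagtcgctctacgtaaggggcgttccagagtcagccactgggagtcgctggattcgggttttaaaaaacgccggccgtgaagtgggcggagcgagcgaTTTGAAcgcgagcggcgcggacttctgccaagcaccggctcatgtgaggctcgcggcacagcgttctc
SPC25 (chr2:168890381-168890580, minus strand): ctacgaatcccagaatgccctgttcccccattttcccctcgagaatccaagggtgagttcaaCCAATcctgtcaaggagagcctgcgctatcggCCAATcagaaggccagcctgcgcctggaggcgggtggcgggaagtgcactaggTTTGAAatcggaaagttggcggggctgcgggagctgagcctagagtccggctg
NDC80 (chr18:2571407-2571606, plus strand): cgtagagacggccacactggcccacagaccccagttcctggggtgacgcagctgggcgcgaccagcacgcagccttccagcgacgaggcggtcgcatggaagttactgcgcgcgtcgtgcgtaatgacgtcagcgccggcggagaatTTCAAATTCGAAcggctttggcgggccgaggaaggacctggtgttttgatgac
HJURP (chr2:233854486-233854685, minus strand): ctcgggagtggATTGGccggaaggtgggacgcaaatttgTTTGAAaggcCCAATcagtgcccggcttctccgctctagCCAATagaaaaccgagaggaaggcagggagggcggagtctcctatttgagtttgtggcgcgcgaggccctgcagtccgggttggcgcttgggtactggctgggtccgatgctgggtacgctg
CENPF (chr1:214603045-214603244, plus strand): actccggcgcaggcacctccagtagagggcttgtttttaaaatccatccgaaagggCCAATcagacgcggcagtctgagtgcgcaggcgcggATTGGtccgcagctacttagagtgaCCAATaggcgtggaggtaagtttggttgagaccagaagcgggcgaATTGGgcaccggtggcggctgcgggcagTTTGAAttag
SKA1 (chr18:50374896-50375095, plus strand): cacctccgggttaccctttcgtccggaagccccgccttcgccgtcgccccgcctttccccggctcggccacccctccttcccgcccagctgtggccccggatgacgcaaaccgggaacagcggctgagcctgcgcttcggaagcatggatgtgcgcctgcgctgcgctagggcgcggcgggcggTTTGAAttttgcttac

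In CENPA the CHR began 18 bases before the start, in SPC25 3 bases before it, below 2 CCAAT boxes, and in NDC80 the 2 forms stood end to end from 3 bases before the start, with no CCAAT in the window. CENPF had 4 CCAAT boxes and its CHR began at base 41 after the start, and in SKA1 it began at base 35. The members with the smallest changes read as follows.
ZWILCH (chr15:66505176-66505375, plus strand): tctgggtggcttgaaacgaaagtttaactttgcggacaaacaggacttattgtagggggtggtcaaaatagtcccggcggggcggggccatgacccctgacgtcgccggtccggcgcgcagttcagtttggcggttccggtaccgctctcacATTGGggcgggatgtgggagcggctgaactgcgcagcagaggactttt
ZW10 (chr11:113773643-113773842, minus strand): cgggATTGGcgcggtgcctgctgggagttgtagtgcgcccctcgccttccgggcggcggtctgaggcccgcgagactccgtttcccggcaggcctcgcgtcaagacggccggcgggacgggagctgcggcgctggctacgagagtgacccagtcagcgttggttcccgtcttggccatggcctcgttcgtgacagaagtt
NSL1 (chr1:212791728-212791927, minus strand): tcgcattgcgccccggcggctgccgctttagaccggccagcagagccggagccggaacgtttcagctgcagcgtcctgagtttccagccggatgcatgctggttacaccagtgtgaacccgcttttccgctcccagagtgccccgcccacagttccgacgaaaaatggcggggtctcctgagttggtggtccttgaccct
CENPC (chr4:67545454-67545653, minus strand): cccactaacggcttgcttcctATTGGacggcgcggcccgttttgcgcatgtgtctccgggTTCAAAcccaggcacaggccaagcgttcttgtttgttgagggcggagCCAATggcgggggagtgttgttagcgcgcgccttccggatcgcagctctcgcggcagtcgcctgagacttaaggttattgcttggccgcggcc

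NSL1 held none of the 3 motifs in its whole window, ZWILCH had 1 CCAAT, ZW10 had 1 CCAAT and the CHR upstream of the printed stretch, and CENPC had 2 CCAAT boxes and a CHR. Where no match was found, only these letters are missing from the window.

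Other genes of the kinetochore and its regulators were taken from a list of 30 genes outside the members. Of the 28 tested, 21 were lower by edgeR, against 13.3% of all genes tested, and the median log2 fold change was −1.35. CENPB, CENPX and MAPRE1 were among the 21 but lost their call under some alternatives. The number lower ran from 18 to 23 over the alternatives, which did not all test the same genes. The number higher was 0, also with unadjusted p-values under 0.05 and by DESeq2. The largest falls were those of AURKB, the kinase that corrects wrong attachments, PLK1, a kinase that builds the kinetochore, KIF2C, a microtubule depolymerase at centromeres, BIRC5, the survivin subunit beside AURKB, and SPAG5, or astrin. Their log2 fold changes were −6.75, −4.31, −3.63, −3.32 and −2.30 (adjusted p of 1.47e-07 or less, edgeR). The 3′ end of PLK1 overlaps ERN2 on the opposite strand.

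Without a call were BOD1, MAD2L1BP, TRIP13 and NDEL1, with log2 fold changes from −0.27 to 0.08, CLASP1 and CLASP2, both at 0.47, and CENPS, which shares its 3′ end with CENPS-CORT, at −0.72. TRIP13 and MAD2L1BP disassemble the checkpoint complex and the CLASP proteins stabilise microtubules. CLASP1 had 8.12, 9.21 and 23.6 CPM with DMSO and 23.6, 19.2 and 14.1 CPM with abemaciclib, and passed the threshold upwards (log2 fold change 1.12, adjusted p = 0.0115, edgeR) once DMSO replicate 3, its highest DMSO library, was left out. CENPV and HASPIN were not tested: CENPV, whose 3′ end overlaps PIGL on the opposite strand, had 20 counts with DMSO, 14 of them in replicate 1, and 0 with abemaciclib, and HASPIN, a kinase that marks centromeric chromatin, had 30 and 2.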

How the data were processed

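RNA-seq was analysed in 6 libraries of parental ZR-75-1 cells, 3 with DMSO and 3 with abemaciclib, grouped by their labels. The study's methods describe 3 independent cultures per condition, so p-values measure the spread between these cultures. The deposited values are raw counts per gene, which the authors made from 3′ mRNA libraries by trimming, alignment with STAR 2.7.5b to hg38 and counting with featureCounts 2.0.1 (versions also in the submitters' processing notes). The strand setting of the counting is not given in the sources used here, so overlapping genes are named beside their values.

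Counts were tested with edgeR 4.0.16 (R 4.3.3) by the quasi-likelihood test after filterByExpr and TMM scaling, and p-values were adjusted by Benjamini-Hochberg over 10863 genes, with a threshold of 0.05. Standard errors were taken from the log2 fold change and the F statistic. DESeq2 1.42.0, other scalings and filters, a replicate term and leaving out each library were alternatives. The fit was tested on simulated counts for this comparison, where it called 87.6% of 193 genes given a known change. Of the 173 genes it called there, 169 were changed ones. In simulated counts without any change it called 0 of 10837 genes. Libraries of the same group differed by more than sampling noise. Coordinates are those of GENCODE release 44 on GRCh38, the assembly of the files, and promoters are from RefSeq.

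The members, role groups and other gene lists were chosen with earlier results of these data known. All members could be named. Library values were given at least for the largest change past the threshold and the smallest change of each role group and for all members not past it. Of the other kinetochore genes, the 5 largest falls, any that rose and those not past the threshold or not tested were named, and KNTC1 was added after its values were seen.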

Additional observations from a re-analysis of the deposited data

How the results depend on the processing

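No member was called higher and no called direction reversed under any of the 12 alternatives. Of 463 values of single members, 441 kept their side of the threshold. Of the 27 called members, 21 kept their call under every alternative that tested them. The exceptions were CENPP, MAD2L1, CENPK, CENPO, CENPN and DSN1. CENPA, NDC80, SPC24, SPC25 and SKA1 were not tested when each library needed 10 counts or more. The members called lower numbered 25 with DESeq2, 27 with DESeq2 size factors, 27 with total counts as the only scaling, 26 with no filter on low counts and 22 of 34 tested when each library needed 10 counts or more. With that filter, which takes out genes that fell to few counts, the median log2 fold change was −0.86 for the members and −1.09 for the other kinetochore genes. With 1 library left out, 23 to 27 members were lower, their median was −1.13 to −0.95, and 0 to 1 of the other kinetochore genes were higher. The replicate numbers of the groups were not shown to pair the libraries, since same-numbered libraries correlated at −0.04, 0.01 and −0.09 in their deviations. With the replicate block 25 members were lower, and CENPP (adjusted p = 0.0651) and MAD2L1 (adjusted p = 0.0531) lost their call in edgeR. Over all genes the block gave 1280 lower and 1139 higher, against 1442 and 1354 without it. At this depth, members with few counts have wide intervals. The widest were those of CENPA and SPC25, with SE of 0.61 and 0.59, against 0.39 for CENPT and 0.35 for CENPL.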
